A study of Mus musculus with 13 samples.

Results

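Endothelial and mural cell genes were followed in cortex RNA of 13 mice, all male and 18 months old. The set held 36 genes named for their cell type, 26 of endothelial cells and 10 of mural cells (pericytes and smooth muscle), out of 17562 genes listed in at least 1 of 3 tables. All 36 were listed for Grn-/-; GRNtg against wild type and for Grn-/-; GRNtg against Grn+/-. For Grn+/- against wild type 35 were listed, and Cnn1 was not. The groups were 4 humanized Grn-/-; GRNtg mice, which have a human GRN transgene in place of mouse Grn, 4 mice with 1 working mouse copy (Grn+/-) and 5 wild-type mice (Grn+/+). Grn encodes progranulin, which is secreted and also works in lysosomes, and the study profiled gene expression in mice short of mouse or humanized progranulin. The sources used here give neither the promoter and copy number of the transgene nor the litters of the mice.

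Endothelial cells line brain vessels and, joined by tight junctions and equipped with dedicated carriers, form the blood-brain barrier. Pericytes wrap capillaries and smooth muscle cells ring arterioles and arteries. VEGF and its receptors, angiopoietins and the Tie receptors, Notch, PDGF and TGF-beta family signals keep these cells in place, and Wnt signals from the brain maintain barrier genes. The RNA was taken from whole cortex, so fewer vascular cells and less RNA per vascular cell cannot be told apart.

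Values are the authors' own: a mean normalized count over all libraries, a log2 fold change of the first-named genotype over the second, its standard error (SE, given after ±) and an adjusted p. Values per mouse or per genotype are not analysed here, so whether the groups overlap is not known. The authors' fit may have drawn fold changes towards no change, by amounts that could differ between genes. Sizes are therefore compared as deposited, and intervals may lie too close to the reference level. A gene was called where the adjusted p was under 0.05. Mouse Grn checked the genotype labels. Its log2 fold change was -2.02 ± 0.081 in Grn-/-; GRNtg and -0.65 ± 0.077 in Grn+/- against wild type by the authors' deposited tables (adjusted p = 5.8e-131 and 2.9e-13). Where counting did not use strand, 10 of the 36 members could share reads with a gene that overlaps their exons. Most overlap was annotated for Foxq1 (66.1% of its exon length) and Tagln (62.4%). Pltp overlapped Ctsa (19.3%), Sox17 overlapped Gm37587 (16.85%) and Eng overlapped Fpgs over 61 bases. Ly6a and Ly6c1, and Abcb1a and Slco1a4, belong to families with close copies. Reads that match more than 1 copy make their counts uncertain whatever the strand.

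Both cell types were measured at moderate levels. Per kilobase (kb) of exon, the mean normalized count of the endothelial members had a median of 118 and a range of 17.6 to 776, from values by the authors' deposited tables. The mural members had a median of 99.5 per kb and a range of 6.75 to 881, and the median of all 16888 genes with an annotated length was 63.1 per kb. Vtn, which encodes vitronectin and marks pericytes in mouse brain, was highest at 881 per kb by the authors' deposited tables. Pltp (776 per kb), a phospholipid transfer protein, Cldn5 (754 per kb), the main tight junction claudin of the barrier, and Slc2a1 (740 per kb), the glucose transporter GLUT1, came next by the authors' deposited tables. Cnn1, calponin of smooth muscle, was lowest at 6.75 per kb, and Emcn, endomucin, followed at 17.6 per kb by the authors' deposited tables.

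**Figure D1:**
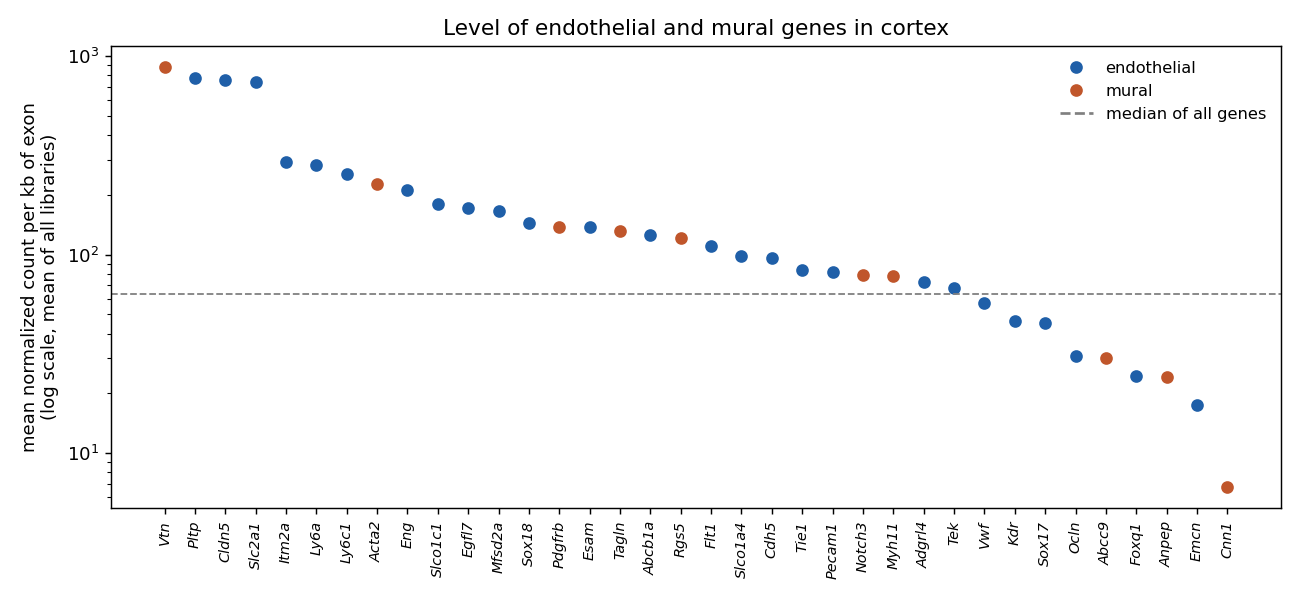
Mean normalized count per kb of annotated exon (log axis) of the 36 members, as the authors' mean over all libraries, ordered from high to low. Points are single genes, the dashed line is the median of all genes (63.1 per kb), and 4 genes, Vtn, Pltp, Cldn5 and Slc2a1, stand apart at 740 per kb and above with the next, Itm2a, at 293.

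Against wild type, Grn-/-; GRNtg cortex had less RNA of 4 endothelial members: the VEGF receptor genes Flt1 and Kdr, the TGF-beta co-receptor gene Eng and the transporter gene Slco1c1. These were 4 of 26 endothelial members (15.4%) and 4 of all 36 (11.1%), where 4.87% of all 14961 genes were called and 3.05% were called lower. The other 22 endothelial members and the 10 mural members were not called, and 0 members were called higher, where 1.81% of all genes were. At an unadjusted p under 0.05, 10 members were lower and 1 was higher, where 10.4% and 10.1% of all genes were. The median log2 fold change was -0.12 over the endothelial members and 0.00 over the mural members (-0.0045), beside 0.01 over all genes (0.0050). A negative sign was seen in 19 of 26 endothelial and 5 of 10 mural members, and in 48.7% of all genes. The difference between the endothelial and mural medians was not tested.

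VEGF receptors sense the growth factor that builds and maintains vessels. Flt1 (chr5:147561604-147726011, minus strand, GRCm38) encodes VEGFR1, which binds VEGF tightly and acts largely as a decoy. It fell, the log2 fold change being -0.36 ± 0.090, adjusted p = 0.0052, at a mean normalized count of 1496 by the authors' deposited table. From the deposited SE, this is 78.0% of the wild-type level with a 95% interval of 69.0% to 88.1%. Kdr (chr5:75932827-75978458, minus strand) encodes VEGFR2, the main signalling receptor. It fell by 0.40 (SE 0.117), adjusted p = 0.0215, at a mean normalized count of 420 by the authors' deposited table, to 75.7% of wild type (64.6% to 88.7%).

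Eng (chr2:32646595-32682669, plus strand) encodes endoglin, a co-receptor for TGF-beta and BMP ligands whose loss in humans causes hereditary haemorrhagic telangiectasia. It fell by 0.32 (SE 0.103), adjusted p = 0.0445, at a mean normalized count of 857 by the authors' deposited table, to 80.1% of wild type (69.7% to 92.2%). Slco1c1 (chr6:141524368-141570177, plus strand) encodes OATP1C1, which carries thyroxine across the barrier and is also made by choroid plexus epithelium. It fell by 0.36 (SE 0.087), adjusted p = 0.0030, at a mean normalized count of 930 by the authors' deposited table, to 77.7% of wild type (69.1% to 87.5%). All 4 calls were lost when the statistics were divided by their robust spread over all genes, which was 1.56 (adjusted p between 0.77 and 0.99). Under that setting 0.0334% of all genes passed, and Eng also lost its call with a trend over gene span removed (adjusted p = 0.064).

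The 250 bases before the annotated start of these 4 genes are shown because these were the members called. Whether the 4 genes vary together between mice is not known. They are RefSeq windows on GRCm38.p6, each written 5′ to 3′ on the gene's own strand, at chr6:141524104-141524353 (plus) for Slco1c1, chr5:147726012-147726261 (minus) for Flt1, chr5:75978456-75978705 (minus) for Kdr and chr2:32646345-32646594 (plus) for Eng. Capitals mark the core bound by ETS factors, the family of Erg and Fli1 that runs through endothelial genes, searched as AGGAAG or CGGAAG on both strands.
Flt1: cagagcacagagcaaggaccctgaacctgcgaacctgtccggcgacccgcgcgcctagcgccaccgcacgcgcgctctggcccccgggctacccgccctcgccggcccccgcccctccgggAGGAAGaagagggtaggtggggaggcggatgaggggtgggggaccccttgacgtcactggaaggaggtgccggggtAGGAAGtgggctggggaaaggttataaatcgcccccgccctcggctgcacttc
Kdr: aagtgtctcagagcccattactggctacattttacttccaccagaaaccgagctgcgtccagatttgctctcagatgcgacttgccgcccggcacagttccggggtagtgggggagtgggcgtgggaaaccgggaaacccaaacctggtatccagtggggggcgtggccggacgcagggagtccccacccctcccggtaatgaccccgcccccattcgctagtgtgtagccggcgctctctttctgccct
Eng: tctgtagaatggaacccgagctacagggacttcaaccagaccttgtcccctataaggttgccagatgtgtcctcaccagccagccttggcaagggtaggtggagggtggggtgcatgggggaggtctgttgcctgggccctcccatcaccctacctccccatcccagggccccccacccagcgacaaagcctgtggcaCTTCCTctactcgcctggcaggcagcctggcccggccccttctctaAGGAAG
Slco1c1: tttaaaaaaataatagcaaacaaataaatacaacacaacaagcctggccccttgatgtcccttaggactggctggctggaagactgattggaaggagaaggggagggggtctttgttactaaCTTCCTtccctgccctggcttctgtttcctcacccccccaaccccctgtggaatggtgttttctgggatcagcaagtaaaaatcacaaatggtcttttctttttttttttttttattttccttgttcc
The Flt1 window held 2 matches, the Eng window 2 and the Slco1c1 window 1, and the Kdr window held none of these letters. Among the members, 25 had a RefSeq window. A match stood in the windows of 11 of 18 endothelial members and 0 of 7 mural members, by gene, and in 39.2% of all 32841 windows of this length. Per window this was 54.5% of 22 endothelial windows. The SOX core (ACAAAG or ACAATG, both strands) stood in 31.8% of the endothelial windows, 14.3% of the mural ones and 25.2% of all. A GC box (GGGCGG, both strands) stood in 40.9% of endothelial, 42.9% of mural and 32.7% of all windows. A forkhead core (TAAACA, both strands) stood in 18.2% of endothelial and 28.6% of mural windows and in 3952 of all 32841. These matches are letters in a window and say nothing of binding.

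Tek and Tie1 encode the receptors TIE2 and TIE1 of the angiopoietin system, which quiets mature vessels. Neither was called in Grn-/-; GRNtg against wild type. Tek was at -0.27 ± 0.122 (adjusted p = 0.17) and Tie1 at 0.03 ± 0.106 (adjusted p = 0.90) by the authors' deposited table. The interval of Tie1 runs from 88.5% to 118% of the wild-type level, and that of Tek from 70.0% to 97.7%.

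The junction and adhesion members were negative in 5 of 5 cases with 0 called. Cdh5, VE-cadherin of endothelial adherens junctions, was at -0.27 ± 0.099 (adjusted p = 0.081) by the authors' deposited table. Cldn5 was at -0.23 ± 0.097 (adjusted p = 0.13) by the authors' deposited table, and passed with a trend over gene span removed (-0.30, adjusted p = 0.041). The other 3 members, Pecam1, Ocln and Esam, lay between -0.13 and -0.09 by the authors' deposited table. Pecam1 is the adhesion molecule CD31, Ocln the junction protein occludin and Esam an immunoglobulin-like adhesion molecule. Their 95% intervals all include the wild-type level.

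Among the 6 transporters and lipid carriers, Slco1c1 was the member called. Slco1a4, an organic anion carrier of the same family, was at -0.17 ± 0.094 (adjusted p = 0.28) by the authors' deposited table. Abcb1a, the efflux pump P-glycoprotein, was at -0.12 ± 0.096 (adjusted p = 0.51) by the authors' deposited table. Mfsd2a, which carries docosahexaenoic acid as a lysolipid and restrains transcytosis, was at -0.07 ± 0.108 (adjusted p = 0.77) by the authors' deposited table. Slc2a1 (-0.01 ± 0.090) and Pltp (0.00 ± 0.107) were within 0.01 of 0 by the authors' deposited table, and the interval of Slc2a1 ran from 88.2% to 113% of wild type.

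The transcription factor genes Sox17 (0.11 ± 0.130), Sox18 (0.03 ± 0.136) and Foxq1 (-0.04 ± 0.125) were not called by the authors' deposited table. Sox17 and Sox18 drive arterial and early endothelial identity, and Foxq1 marks brain endothelium. Adgrl4, an adhesion G protein-coupled receptor of endothelium, came closest to the threshold of the members not called, at -0.33 ± 0.116 (adjusted p = 0.070) by the authors' deposited table. Emcn was at -0.20 ± 0.124, Ly6a at -0.12 ± 0.119 and Itm2a at -0.07 ± 0.101 by the authors' deposited table. Egfl7, a secreted vessel protein, was at 0.13 ± 0.086, Ly6c1 at 0.05 ± 0.115 and Vwf, von Willebrand factor, at 0.00 ± 0.133 by the authors' deposited table. The surface and secreted members therefore lay on both sides of 0, with 4 of 7 negative.

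Pericyte members did not share a direction in Grn-/-; GRNtg against wild type. Abcc9, the sulfonylurea receptor subunit of the pericyte potassium channel, was at -0.25 ± 0.120 (adjusted p = 0.20) by the authors' deposited table. Rgs5, a regulator of G protein signalling, was at -0.22 ± 0.107 (adjusted p = 0.22) by the authors' deposited table. Anpep, aminopeptidase N, was at 0.27 ± 0.136 (adjusted p = 0.23), the highest value of all members by the authors' deposited table. Pdgfrb, the receptor that recruits pericytes (-0.07 ± 0.103), Notch3 (0.05 ± 0.092) and Vtn (0.02 ± 0.104) lay nearer to 0 by the authors' deposited table.

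Smooth muscle contractile members lay between -0.09 and 0.09 in that comparison. Acta2, smooth muscle actin, was at -0.09 ± 0.136, Myh11, smooth muscle myosin, at -0.03 ± 0.136, Tagln, transgelin, at 0.03 ± 0.132 and Cnn1 at 0.09 ± 0.107 by the authors' deposited table. From the deposited SE, the 95% interval of Acta2 was 77.9% to 113% of wild type and that of Myh11 81.7% to 118%. Both intervals would lie too close to the wild-type level if the deposited fold changes were drawn towards no change.

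**Figure D2:**
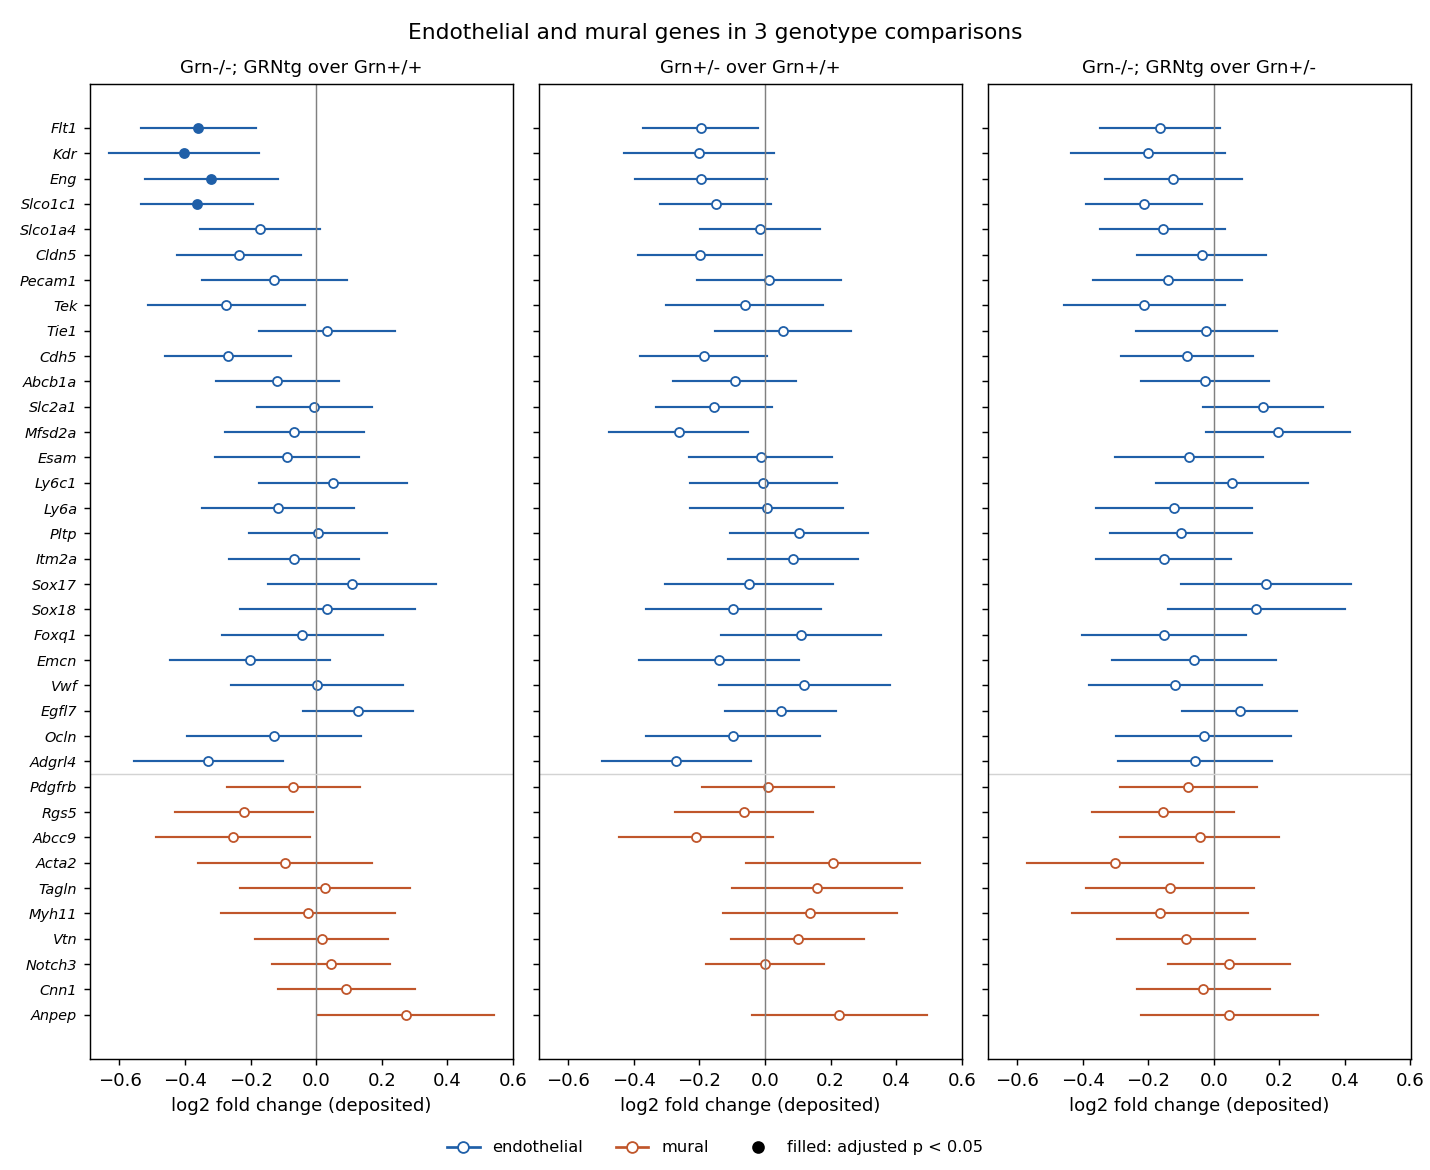
Deposited log2 fold changes of the 36 members (points) with 95% intervals from the deposited SE (lines) in Grn-/-; GRNtg over Grn+/+, Grn+/- over Grn+/+ and Grn-/-; GRNtg over Grn+/-, endothelial genes in blue above and mural genes in orange below. Filled points have an adjusted p under 0.05, and the 4 filled ones, Flt1, Kdr, Eng and Slco1c1, are in the left panel at -0.36, -0.40, -0.32 and -0.36.

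In Grn+/- against wild type, 0 of 35 members were called by the authors' adjusted p, where 6.80% of all 13482 genes were (4.51% lower and 2.29% higher). Dividing the statistics by their robust spread also gave 0. At an unadjusted p under 0.05, 4 members were lower and 0 higher, where 11.1% and 9.09% of all genes were. The 4 were Adgrl4 (-0.27 ± 0.116), Mfsd2a (-0.26 ± 0.108), Cldn5 (-0.20 ± 0.097) and Flt1 (-0.20 ± 0.090) by the authors' deposited table, with adjusted p between 0.13 and 0.22. Of the genes called in the other mutant, Kdr was at -0.20 ± 0.117, Eng at -0.20 ± 0.103 and Slco1c1 at -0.15 ± 0.087 by the authors' deposited table. These values share the wild-type mice with the comparison above.

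The endothelial median in Grn+/- against wild type was -0.08 with 18 of 26 members negative, where the median of all genes was 0.01 (0.0082) and 47.6% of them were negative. Pltp (0.10 ± 0.107), Itm2a (0.08 ± 0.101), Foxq1 (0.11 ± 0.125) and Vwf (0.12 ± 0.133) were among the 8 positive members by the authors' deposited table. The mural median was 0.10, with 6 of 9 positive, but 0.05 with a trend over gene span removed (0.047), and the mean weighted by 1/SE squared was 0.04 (0.044). The contractile genes Acta2 (0.21 ± 0.136), Tagln (0.16 ± 0.133) and Myh11 (0.14 ± 0.136), and Anpep (0.23 ± 0.136), were the highest mural values by the authors' deposited table. None of them passed, with adjusted p between 0.35 and 0.62. Abcc9 was the lowest mural member at -0.21 ± 0.120 (adjusted p = 0.32) by the authors' deposited table.

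The direct comparison asks whether the mutant groups differ from each other, and 0 of 36 members were called in Grn-/-; GRNtg against Grn+/- by the authors' adjusted p, where 0.467% of all 17562 genes were. Dividing by the robust spread again gave 0. At an unadjusted p under 0.05, 2 members were lower, Slco1c1 (-0.21 ± 0.091, adjusted p = 0.42) and Acta2 (-0.30 ± 0.137, adjusted p = 0.47) by the authors' deposited table, and 0 were higher, where 3.85% and 5.14% of all genes were. Flt1 was at -0.16 ± 0.094, Kdr at -0.20 ± 0.120 and Eng at -0.12 ± 0.107 by the authors' deposited table. Their 95% intervals, -0.35 to 0.02 for Flt1, -0.44 to 0.03 for Kdr and -0.33 to 0.09 for Eng, include 0. The interval of Slco1c1, -0.39 to -0.04, does not include 0, but its adjusted p over all genes did not pass.

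The median in this direct comparison was -0.08 over the endothelial members, 20 of 26 of them negative, and -0.08 over the mural members, 8 of 10 of them negative, beside 49.2% of all genes. Mfsd2a (0.20 ± 0.112), Sox17 (0.16 ± 0.132), Slc2a1 (0.15 ± 0.093) and Sox18 (0.13 ± 0.137) were the highest members by the authors' deposited table. Tek (-0.21 ± 0.125), Myh11 (-0.16 ± 0.137) and Rgs5 (-0.16 ± 0.111) were at the low end by the authors' deposited table.

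Genes that work with the members were counted in lists of the pathways. Each count stands beside the background of all genes called against wild type. This was 4.87% in Grn-/-; GRNtg (3.05% lower and 1.81% higher) and 6.80% in Grn+/- (4.51% lower and 2.29% higher). At these list sizes 1 called gene is near that background, and nothing is read from the counts about a list as a whole. In the VEGF list, which holds ligands and co-receptors, 1 of 11 genes was lower in Grn-/-; GRNtg against wild type, and 1 of 11 in Grn+/- against wild type. Grn-/-; GRNtg called Apln, the vascular peptide apelin (-0.44 ± 0.132, adjusted p = 0.026), and Grn+/- called Nrp1, the VEGF co-receptor neuropilin 1 (-0.41 ± 0.113, adjusted p = 0.0096), by the authors' deposited tables. Nrp1 is made by neurons too, and was at -0.05 ± 0.112 in Grn-/-; GRNtg against wild type by the authors' deposited table. The list medians were -0.05 and 0.00 (-0.0035).

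Among angiopoietins and Tie partners, 1 of 6 genes was lower in Grn-/-; GRNtg: Ptprb, the endothelial phosphatase VE-PTP that acts on TIE2, at -0.41 ± 0.117 (adjusted p = 0.018) against wild type by the authors' deposited table. The list had a median of 0.14 there, so Ptprb and the rest lay on opposite sides of 0. In Grn+/-, 0 of 5 were called, and Ptprb was at -0.24 ± 0.117 by the authors' deposited table. The endoglin, BMP and TGF-beta list had 1 of 14 lower in Grn-/-; GRNtg, and 1 lower and 1 higher in Grn+/-. Smad5, a signal carrier below BMP receptors, was at -0.31 ± 0.087 in Grn-/-; GRNtg and -0.35 ± 0.087 in Grn+/- by the authors' deposited tables (adjusted p = 0.017 and 0.0038). Id2, a BMP target, was at 0.23 ± 0.093 in Grn-/-; GRNtg and rose in Grn+/- (0.29 ± 0.093, adjusted p = 0.032) by the authors' deposited tables.

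Notch genes and PDGF ligands had 1 of 16 lower in each mutant against wild type. Dll4, the Notch ligand of arterial and tip cells, fell in Grn-/-; GRNtg (-0.45 ± 0.131, adjusted p = 0.023) and was at -0.08 ± 0.130 in Grn+/- by the authors' deposited tables. Pdgfd, a ligand of PDGFRB, was at -0.23 ± 0.137 in Grn-/-; GRNtg and fell in Grn+/- (-0.50 ± 0.138, adjusted p = 0.010) by the authors' deposited tables. In the Wnt list, Lrp6, a Wnt co-receptor of many cell types, was the 1 of 16 called in each, at -0.27 ± 0.089 in Grn-/-; GRNtg and -0.35 ± 0.089 in Grn+/- by the authors' deposited tables (adjusted p = 0.046 and 0.0036). The Wnt list had 13 of 16 members negative in Grn-/-; GRNtg with a median of -0.13, and 11 of 16 in Grn+/- with a median of -0.08.

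Other junction genes had 2 of 14 lower in Grn-/-; GRNtg against wild type, with a list median of -0.18. Tjp1, the scaffold ZO-1 (-0.27 ± 0.085, adjusted p = 0.038), and Jam2, a junctional adhesion molecule (-0.19 ± 0.062, adjusted p = 0.048), fell by the authors' deposited table. In Grn+/-, Mllt4, which encodes afadin, was the 1 of 13 that fell (-0.26 ± 0.077, adjusted p = 0.019), and Tjp1 was at -0.24 ± 0.085 (adjusted p = 0.057) by the authors' deposited table. Among other barrier transporters, 2 of 18 were lower and 1 higher in Grn-/-; GRNtg. Slc19a3, a thiamine carrier (-0.46 ± 0.126), and Slc16a1, the monocarboxylate carrier MCT1 (-0.33 ± 0.098), fell and Slc7a8, an amino acid carrier (0.25 ± 0.076), rose by the authors' deposited table, with adjusted p between 0.014 and 0.031. In Grn+/-, Slc19a3 (-0.43 ± 0.126, adjusted p = 0.016) and Insr, the insulin receptor (-0.20 ± 0.069, adjusted p = 0.046), fell by the authors' deposited table, and these were 2 of 18.

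Of 28 further endothelial identity genes, 2 were lower in Grn-/-; GRNtg against wild type, and 2 of 27 in Grn+/-. They were S1pr1, a sphingosine 1-phosphate receptor that astrocytes make as well, and Edn1, the constrictor peptide endothelin 1. S1pr1 was at -0.43 ± 0.080 in Grn-/-; GRNtg and -0.28 ± 0.080 in Grn+/- by the authors' deposited tables (adjusted p = 4.7e-05 and 0.014). Edn1 was at -0.56 ± 0.132 in Grn-/-; GRNtg and -0.41 ± 0.132 in Grn+/- at a mean normalized count of 68.4 by the authors' deposited tables (adjusted p = 0.0025 and 0.032). The list median was -0.04 in Grn-/-; GRNtg, with 17 of 28 negative, and 0.00 in Grn+/- (-0.0030), with 14 of 27 negative. In the direct comparison of the mutants, 0 genes of these lists were called.

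Further mural genes were counted in the same way. Other pericyte genes had 0 of 14 called in each comparison by the authors' adjusted p, and at most 1 at an unadjusted p under 0.05. Of these Cspg4, the proteoglycan NG2 that oligodendrocyte precursors also make, was closest at 0.27 ± 0.077 (adjusted p = 0.070) in Grn-/-; GRNtg against Grn+/- by the authors' deposited table. Other smooth muscle genes had 1 of 15 lower in Grn-/-; GRNtg and 1 of 14 in Grn+/- against wild type. This was Srf, serum response factor, which every cell type uses, at -0.24 ± 0.073 and -0.25 ± 0.073 by the authors' deposited tables (adjusted p = 0.029 and 0.016).

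**Figure D3:**
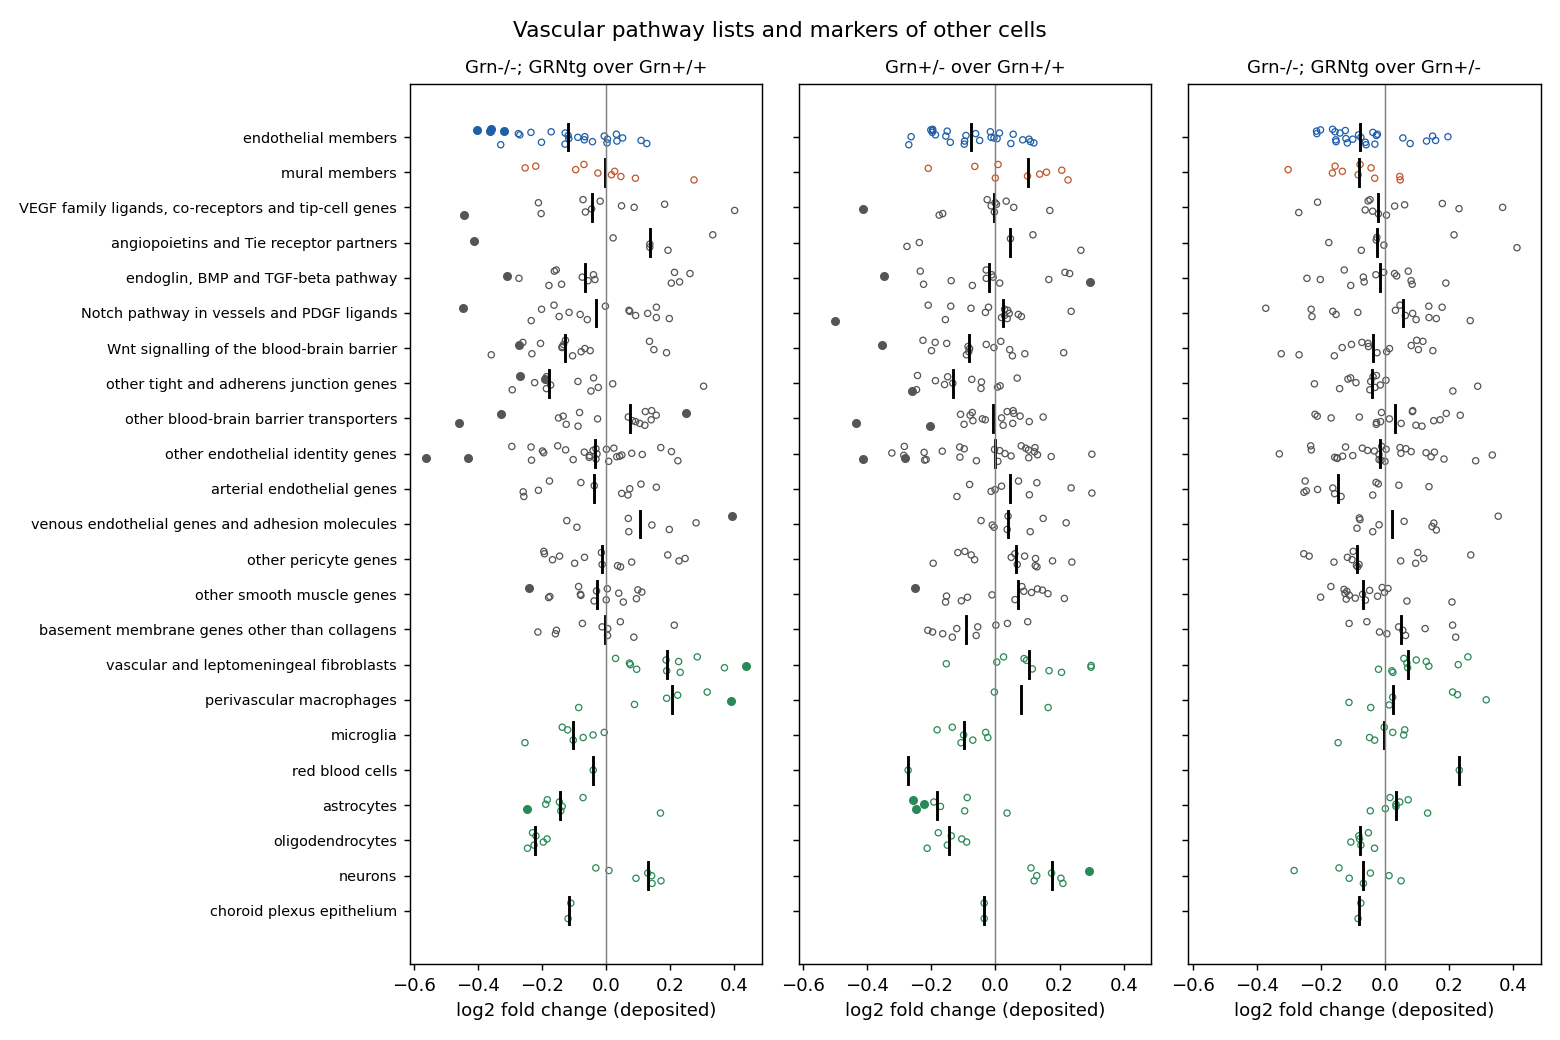
Deposited log2 fold changes of single genes (points; filled where the adjusted p is under 0.05) in the members, 13 vascular pathway and subtype lists (grey) and 8 marker lists of other cells (green), with the list median as a black bar. In Grn-/-; GRNtg over Grn+/+ the endothelial median is -0.12 and the mural median near 0, while fibroblast markers have a median of 0.19 and oligodendrocyte markers one of -0.22.

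Markers of other cells were counted in the same comparisons, and their part in the results above was not tested. Fibroblast markers of vessels and leptomeninges were positive in 11 of 11 genes in Grn-/-; GRNtg against wild type, with a median of 0.19. Of these, Mgp was the 1 that rose (0.44 ± 0.136, adjusted p = 0.037) by the authors' deposited table, where 1.81% of all genes were called higher. In Grn+/- against wild type 9 of 10 fibroblast markers were positive and 1 negative, with a median of 0.11 and 0 called. Markers of perivascular macrophages had a median of 0.21 in Grn-/-; GRNtg against wild type. Of these, 1 of 6 was called higher, beside 1.81% of all genes. This was Lyve1, at 0.39 ± 0.114 (adjusted p = 0.0215) by the authors' deposited table. Its mean normalized count of 7.74 was near 6.83, the lowest listed in that comparison. In Grn+/- against wild type 2 of 7 macrophage markers were listed, with a median of 0.08 and 0 called. Astrocyte markers had 1 of 8 lower in Grn-/-; GRNtg and 3 of 8 in Grn+/-, against wild type. Over all genes 3.05% and 4.51% were called lower. The astrocyte medians were -0.14 and -0.18, with 7 of 8 negative in each, beside -0.12 and -0.08 for the endothelial members. Slc4a4 was at -0.25 ± 0.080 in Grn-/-; GRNtg and at -0.25 ± 0.080 in Grn+/- by the authors' deposited tables. Microglia markers had medians of -0.10 in Grn-/-; GRNtg and -0.10 in Grn+/-, with 7 of 7 negative in each. Of these, 0 of 7 were called in each by the authors' adjusted p, and 1 and 0 passed at an unadjusted p under 0.05. Oligodendrocyte markers had medians of -0.22 and -0.14 for Grn-/-; GRNtg and Grn+/-, with 6 of 6 negative in each. Of these, 0 of 6 were called in each, and 0 passed at an unadjusted p under 0.05.

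Neuron markers were positive in 6 of 7 genes in Grn-/-; GRNtg and 7 of 7 in Grn+/-, against wild type. Their median was 0.13 in Grn-/-; GRNtg with 0 of 7 called, and 0.17 in Grn+/- with 1 of 7 higher. That 1 was Snap25, a synaptic vesicle fusion protein, at 0.29 ± 0.097 (adjusted p = 0.043) by the authors' deposited table. Over all genes 2.29% were called higher in Grn+/- against wild type. Choroid plexus markers were represented by 2 of 6 genes. Kcnj13 and Aqp1 were at -0.11 ± 0.103 and -0.12 ± 0.095 in Grn-/-; GRNtg against wild type by the authors' deposited table. Both were scarce, at mean normalized counts of 25.1 and 28.6 by the authors' deposited tables. Ttr, Folr1, Kl and Clic6 of the choroid plexus list were listed in no comparison. Red blood cell markers were represented by 1 of 5 genes, Alas2, and no haemoglobin gene of that list was listed in any comparison. Between the mutants, genes were listed down to a mean normalized count of 0.523. Why these choroid plexus and haemoglobin genes were not listed was not tested. Alas2 was at -0.04 ± 0.130 in Grn-/-; GRNtg and at -0.27 ± 0.130 in Grn+/- against wild type by the authors' deposited tables. In Grn-/-; GRNtg against Grn+/- it was at 0.23 ± 0.128, and it was called in none of these comparisons. The choroid plexus or blood content of the samples cannot be judged from these genes. The range of these lists' levels within each genotype is not analysed here.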

How the data were processed

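The files used here are 3 comparison tables of the authors, with no values per mouse. Per the submitters' processing notes, which state no roles, DESeq2 1.34.0, R 4.1.2 and build mm10 were in use. The sources used here do not give the aligner, counter, annotation or strand setting. Libraries were directional, per the labels' protocols. Per the file headers, each table gives a mean normalized count (a signal averaged by the authors over all libraries), the authors' log2 fold change and its SE, a Wald statistic (a score the authors formed by dividing the fold change by its SE), a p-value and an adjusted p-value by the authors. Recomputing returned the statistic and the Benjamini-Hochberg adjustment over each table. Fold changes of the 3 tables add up, so they come from a single fit. SEs stop at 0.138 in each table, as a prior centred on 0 would give. SEs also did not always fall as counts rose. In Grn-/-; GRNtg against wild type, Cnn1 (18.5 counts) had a smaller SE than Acta2 (496 counts), 0.107 beside 0.136. Whether the authors used a prior is not stated and was not tested. If so, fold changes are drawn towards 0, by amounts that could differ between genes. Differences in size between members and between list medians could then partly reflect this. Against wild type, the lowest mean normalized count listed was 6.83 for Grn-/-; GRNtg and 24.7 for Grn+/-. Between the mutants it was 0.523. Cnn1, at 18.5 counts, lay under the lowest count listed for Grn+/- against wild type. The shares of all genes called therefore rest on different sets of genes. Over the 13482 genes in all 3, with the adjustment redone, they were 5.43%, 6.79% and 0.319%. Depth per mouse is unknown. Mean normalized counts of genes summed to 18113972, and 2 rows that name no gene were left out (no_feature 17.0% and ambiguous 0.606% of the sum). No label says how mice or libraries were batched, so a batch cannot be told apart from genotype or from the spread between mice. The p-values come from the authors' fit to these mice alone. The robust spread of the statistics was 1.56 for Grn-/-; GRNtg and 1.49 for Grn+/- against wild type, and 1.10 between the mutants.

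The 95% intervals are normal intervals from the deposited SE. If the fold changes are drawn towards no change, so are these intervals, and they need not cover the true change at the stated rate. Exon lengths, spans and gene positions are from GENCODE M21 (GRCm38, which mm10 names), in which all 36 members matched. The members and the 21 lists (249 entries, 238 listed, 2 by an older symbol) were chosen with earlier results of these data known. All members may be named, and of each list the called genes, up to 5, or else the 1 or 2 of smallest p. Apart from counts and medians no list was tested. A different setting was tried in 7 ways for the calls. The adjustment and robust spread were tested on simulated data. Python 3.11.15, numpy 2.4.6, pandas 2.3.3, scipy 1.17.1 and matplotlib 3.10.9 were used.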

Additional observations from a re-analysis of the deposited data

How the results depend on the processing

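In Grn-/-; GRNtg against wild type, 4 members were called by the authors' adjusted p, and 0 when the statistics were divided by their robust spread. The other 6 settings gave counts within 1.5 times of 4, and every setting gave 0 in the other comparisons. Medians of the endothelial and mural members moved by less than the median SE of their members under each alternative. That SE, 0.11 to 0.12, is of a single gene and about the size of the largest medians. The rule could hardly have failed, and stability is not read from it. Relative to their size, the mural medians against wild type moved most, between -0.026 and -0.0045 in Grn-/-; GRNtg and between 0.044 and 0.10 in Grn+/-. Members near 0 changed sign without being called. With fold changes centred on the median of all genes, Pltp was at -0.00077 and Vwf at -0.0023 in Grn-/-; GRNtg against wild type, and Ly6a at -0.0033 and Pdgfrb at -0.00012 in Grn+/- against wild type. With the gene span trend removed, Sox18 was at -0.037, Myh11 at 0.011 and Vtn at -0.027 in Grn-/-; GRNtg, and Slco1a4 at 0.013, Ly6a at -0.058 and Notch3 at 0.028 in Grn+/-, against wild type. The cause was not tested. No paired analysis was possible because the tables hold no values per mouse, and leaving out each mouse was not run for the same reason.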

Other observations

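Vessel subtypes and the basement membrane were followed in 3 further lists. Arterial endothelial genes had 0 of 11 called in Grn-/-; GRNtg and 0 of 10 in Grn+/- against wild type, with medians of -0.04 and 0.05. In Grn-/-; GRNtg against Grn+/-, 10 of 12 arterial genes were negative with a median of -0.15 and 0 called, and Gkn3, an arterial marker of mouse brain, was lowest in p at -0.25 ± 0.133 (adjusted p = 0.59) by the authors' deposited table. Venous genes and adhesion molecules had a median of 0.11 in Grn-/-; GRNtg against wild type. Of these, 1 of 8 was called higher, where 1.81% of all genes were. This was Nr2f2, the COUP-TFII factor that sets venous identity and is also made by interneurons, at 0.39 ± 0.122 (adjusted p = 0.037) by the authors' deposited table. In Grn+/- against wild type Nr2f2 was at 0.04 ± 0.122 by the authors' deposited table, with 0 of 8 called. Basement membrane genes other than collagens had 0 of 10 called in every comparison, with medians of 0.00 (-0.0040) in Grn-/-; GRNtg and -0.09 in Grn+/- against wild type.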
